A study of Mus musculus with 8 samples.

Results

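Contextual fear conditioning was compared with exposure to the context alone across 2 brain regions and 2 times in all 8 libraries of the study. The 4 conditioned libraries came from C57BL/6 mice sampled 1 h or 6 h after training, and the 4 control libraries from C57BL/6 mice that received the context without the shock pairing, all aged 7 to 9 weeks. Each group had 1 library from frontal cortex and 1 from hippocampus at each time. The RNA was taken from polyribosomes, the complexes in which several ribosomes translate 1 message. Members were the deposited columns labelled conditioned or control, so no measured value chose them. The number of mice behind a library is not stated. The design text names 8 mice and the prefrontal cortex alone, while 4 libraries are labelled hippocampus. Nothing states that the libraries of a group came from separate animals, so every p-value below measures only the spread between these libraries, part of which may be technical.

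Contextual fear conditioning is a form of associative learning in which an animal pairs a place with a foot shock, and both the hippocampus and the prefrontal cortex take part in it. Neuronal firing switches on immediate early genes within minutes. Many of them encode transcription factors (Fos, Junb, Egr1, Npas4), and others act at the synapse (Arc, Homer1) or as secreted growth factors (Bdnf). The consolidation of such a memory is known to need new protein synthesis, and messages held on polyribosomes are those being translated. Exposure to a new context also drives these genes without any shock. The controls here therefore carry the context, and the comparison is aimed at what the shock pairing adds.

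The libraries held 2370973 to 5296986 counts, with 13607 to 15341 genes detected. The libraries labelled conditioned cortex 1 h and conditioned hippocampus 1 h agreed within sampling noise. Their variance ratio was 1.06 over 11599 genes with at least 20 counts, where 1 is counting noise alone, and the next closest pair of libraries stood at 4.85. Both held messages of both tissues: the mean log2 CPM (counts scaled to a common library size with TMM factors) of the markers of hippocampal excitatory neurons was 5.01 in the cortex-labelled library and 5.0 in the other. Their 1 h controls had 3.13 (cortex) and 5.70 (hippocampus). They were therefore counted as 1 conditioned sample (n = 3 conditioned samples, n = 4 control samples). They were added together and set against the sum of both 1 h controls, so that a mixture was compared with a mixture. The mixtures were close but not equal. From 0 (cortex control) to 1 (hippocampus control), the pair lay at 0.43 and 0.42 (median of 65 genes at least 4-fold higher in hippocampus). Over 71 genes higher in cortex it lay at 0.47 and 0.46. The hippocampus control gave 52.2% of the control sum. The effect of this gap on genes of 1 tissue was not tested directly. An alternative fit of 7 libraries kept the 1 h controls apart and gave the pair a tissue value of 0.5. In it the median log2 difference of the hippocampal markers went from -0.22 to 0.07, and that of the cortical markers from -0.03 to 0.09. The comparison then had 3 blocks, which were 1 h (both tissues), cortex 6 h and hippocampus 6 h, and no control library was shared between blocks. The hippocampus control 6 h library stood apart, with 152000 CPM of Kif5c, a kinesin motor of axonal transport, against 508 to 998 CPM in the other controls. The main results are given below with and without its block. Y-linked messages were present in every library, and Xist, the RNA of the inactive X chromosome, had 0 to 3 counts.

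No gene passed the test for training over the 3 blocks. Of 11987 genes tested with the edgeR quasi-likelihood test, 0 (0%) had an adjusted p under 0.05, and the smallest adjusted p was 0.923. An unadjusted p under 0.05 was found for 46 genes higher in conditioned libraries (0.384%) and 80 genes lower (0.667%). Together these 126 genes are a smaller share than the 0.05 that p-values would give if no gene differed. The p-values of this fit thus ran high, and 0 calls do not show that training had no effect. Without the hippocampus 6 h block, 794 of 12541 genes had an unadjusted p under 0.05 in edgeR, and 0 passed. The part of that block's wider spread, given below, was not tested. DESeq2 and limma-voom also called 0 genes, with 138 and 140 at an unadjusted p under 0.05. The median standard error of a log2 difference (conditioned minus control) was 0.31 and its 95% interval reached a median of 0.73 to either side, with 2 residual degrees of freedom. For 5933 genes (49.5%) the 95% interval lay wholly within 1 log2 unit of 0. For the rest, a difference larger than that was not detectable as present or absent at this replication.

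A minority of genes had a difference of the same direction in all blocks. The log2 difference was above 0 in all 3 blocks for 1761 genes (14.7%) and below 0 in all 3 for 1550 genes (12.9%). The block differences had Pearson correlations across genes of 0.08 (1 h and cortex 6 h), 0.08 (1 h and hippocampus 6 h) and -0.01 (cortex 6 h and hippocampus 6 h), given as a description over genes that share libraries. Their spread was unequal: the median absolute deviation was 0.27 at 1 h, 0.32 in cortex at 6 h and 1.1 in hippocampus at 6 h. In the hippocampus 6 h block the log2 difference also moved with the GC content of the transcript (Spearman 0.62 over 11630 genes), against 0.15 at 1 h and -0.08 in cortex at 6 h. Its part in the results was not tested beyond the fit with that trend removed, whose values are given beside some results. Conditioned and control samples did not overlap in CPM for 117 genes (0.976%), 68 of them higher and 49 lower.

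**Figure D1:**
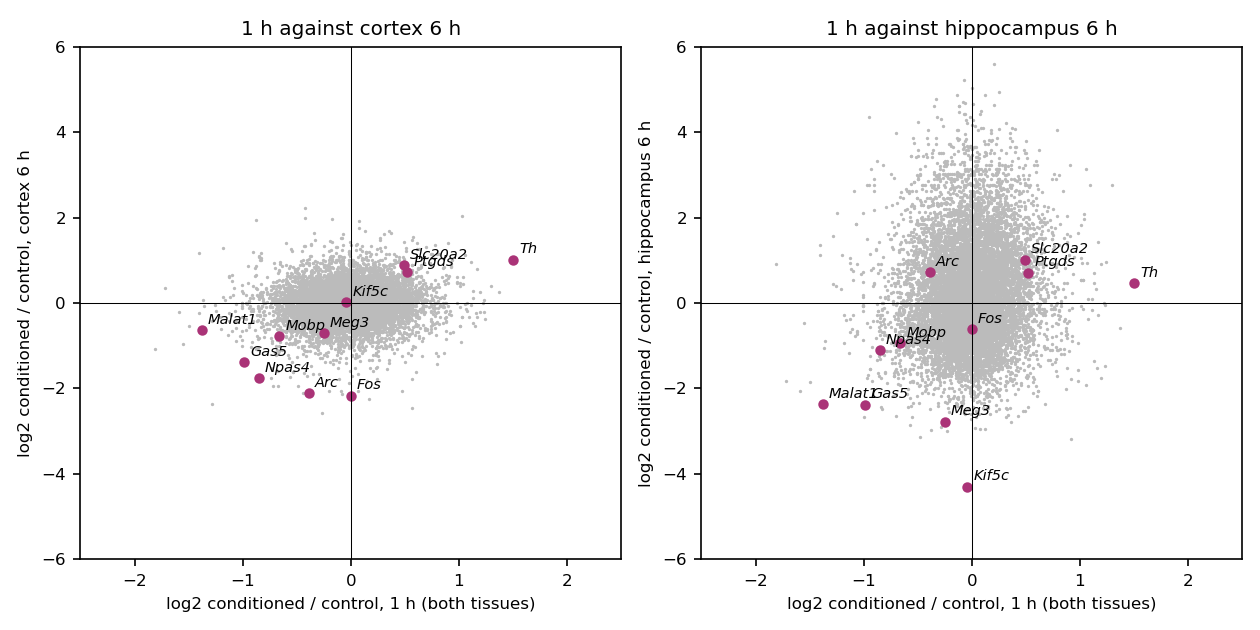
Log2 difference (conditioned over control CPM) of each tested gene at 1 h on the horizontal axis against cortex 6 h (left) and hippocampus 6 h (right) on the vertical axis; grey points are genes and purple points are named genes. The cloud is round on the left and stretched vertically on the right, where the median absolute deviation was 1.1, and Npas4, Gas5, Malat1 and Mobp lie below 0 on every axis.

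Npas4 lay lowest of the immediate early transcription factors. Npas4 is a neuron-specific factor induced by calcium entry, and it controls inhibitory synapse formation. In control libraries it stood at 37.2 CPM (cortex 1 h), 17.6 (hippocampus 1 h), 34.8 (cortex 6 h) and 14.4 (hippocampus 6 h). In conditioned libraries it stood at 13.1 and 15.2 CPM in the 1 h pair, 9.95 in cortex at 6 h and 6.44 in hippocampus at 6 h. With the pair averaged, the highest conditioned sample lay below the lowest control, at 10.2 ± 3.85 CPM (SD, n = 3) against 26.0 ± 11.6 (SD, n = 4). The log2 difference was -1.27 (SE 0.32, 95% interval -2.02 to -0.52), with -0.85 at 1 h, -1.76 in cortex and -1.10 in hippocampus at 6 h. It did not pass after adjustment (edgeR adjusted p = 0.923). It was -1.27 without the hippocampus 6 h block and -1.52 with the GC and length trend removed.

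Dusp1, a phosphatase that switches off MAP kinases and is itself induced by activity and by glucocorticoids, lay in the same direction in every block. Its control levels were 165, 51.3, 116 and 71.2 CPM in cortex 1 h, hippocampus 1 h, cortex 6 h and hippocampus 6 h. Its conditioned levels were 75.9 and 76.7 CPM in the 1 h pair, 64.0 in cortex and 43.2 in hippocampus at 6 h. The groups overlapped across tissues: both hippocampus controls were lower than the conditioned 1 h pair. The log2 difference was -0.65 (SE 0.24, edgeR adjusted p = 0.923), with -0.39, -0.85 and -0.72 in the blocks at 1 h, cortex 6 h and hippocampus 6 h, and -0.61 without the last of these.

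The promoters of these 2 genes and of Th, which had the highest fitted value of the named genes, are shown because cAMP and calcium signalling acts on many activity-regulated genes through CREB, whose sites are built from the core TGACG and its palindrome TGACGTCA. All 3 were matched by symbol in the RefSeq table of build GRCm38.p6. Each sequence is the 250 bases before the annotated start, written 5′ to 3′ in the direction of the gene, with every match to TGACG on either strand in capitals.
Npas4, chr19:4989972-4990221, minus strand: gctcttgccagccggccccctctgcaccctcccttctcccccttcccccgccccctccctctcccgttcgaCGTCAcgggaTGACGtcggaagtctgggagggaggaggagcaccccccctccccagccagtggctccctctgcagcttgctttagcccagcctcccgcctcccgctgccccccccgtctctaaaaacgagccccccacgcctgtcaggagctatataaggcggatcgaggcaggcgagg
Dusp1, chr17:26508473-26508722, minus strand: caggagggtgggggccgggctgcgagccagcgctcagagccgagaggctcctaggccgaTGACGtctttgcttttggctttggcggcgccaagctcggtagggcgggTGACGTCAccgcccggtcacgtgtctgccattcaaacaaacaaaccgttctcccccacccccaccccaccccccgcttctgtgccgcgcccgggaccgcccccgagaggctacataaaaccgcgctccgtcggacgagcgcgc
Th, chr7:142899996-142900245, minus strand: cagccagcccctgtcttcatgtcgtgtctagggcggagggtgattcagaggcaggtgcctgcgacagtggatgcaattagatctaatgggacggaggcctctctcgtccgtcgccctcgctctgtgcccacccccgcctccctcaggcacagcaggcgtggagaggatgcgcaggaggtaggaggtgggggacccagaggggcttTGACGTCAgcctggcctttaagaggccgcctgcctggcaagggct
The Npas4 sequence held 2 core matches and 0 palindromes. Dusp1 held 3 core matches, counting both strands of its 1 palindrome, and Th held 2 from its 1 palindrome. In the same window, TGACG on either strand was found in 17.8% of 32851 promoters and in 26.8% of the 12108 promoters of tested genes. TGACGTCA was found in 1.55% and 2.68%. The matches describe letters in the reference and are no measurement of binding.

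Most other immediate early genes did not share a direction across blocks. Fos, the founding member of the AP-1 factors, stood at 30.9, 14.3, 18.7 and 3.20 CPM in the controls (cortex 1 h, hippocampus 1 h, cortex 6 h, hippocampus 6 h). In conditioned libraries it stood at 20.2 and 22.5 CPM in the 1 h pair, 3.76 in cortex and 1.93 in hippocampus at 6 h. Its log2 difference was 0.00 at 1 h, -2.17 in cortex at 6 h and -0.61 in hippocampus at 6 h, so the fitted value of -0.92 (SE 0.51) rests mostly on the cortex at 6 h. Without the cortex 6 h block it was -0.22. The hippocampus 6 h value of Fos rests on 4 control and 6 conditioned counts.

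Arc, which removes AMPA receptors from synapses, showed the same low value in the conditioned cortex at 6 h. Its control levels were 191, 114, 73.8 and 34.4 CPM, and its conditioned levels were 108 and 114 in the 1 h pair, 16.7 in cortex and 57.4 in hippocampus at 6 h. The log2 differences were -0.39, -2.11 and 0.73, and the fitted value of -0.60 (SE 0.52) became 0.12 without the cortex 6 h block. Junb, another AP-1 factor, followed with -0.40, -1.70 and 0.74. Egr2 and Fosb, activity-induced factors chosen here after their values were seen, stood at -1.82 and -1.49 in cortex at 6 h, beside 0.59 and 1.61 in hippocampus at 6 h. With 1 conditioned and 1 control library in that block, the cortex values at 6 h have no replicate check.

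The 95% intervals of Fos (-2.14 to 0.30), Arc (-1.84 to 0.64) and Junb (-1.64 to 0.57) held 0. Those of the next genes of the panel did so too. Egr1, a zinc finger factor of long-term plasticity, stood at 293 to 2240 CPM in controls and 375 to 1500 CPM in conditioned libraries. Its log2 difference was -0.02 with a 95% interval of -0.71 to 0.66, and its sign was positive under some scalings (0.10 with the 8 libraries in 4 blocks). Bdnf, the neurotrophin of activity-dependent plasticity, had a difference of 0.20 (95% interval -0.43 to 0.83). Homer1, a scaffold that links glutamate receptors to calcium stores, had -0.39, which came from the hippocampus 6 h block (-1.28) and was 0.04 without it. Nr4a1, an orphan nuclear receptor induced by firing, had 0.10, -0.93 and 1.63 in the 3 blocks. Its fitted value was 0.13, -0.27 without the hippocampus 6 h block and -0.18 with the GC and length trend removed.

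**Figure D2:**
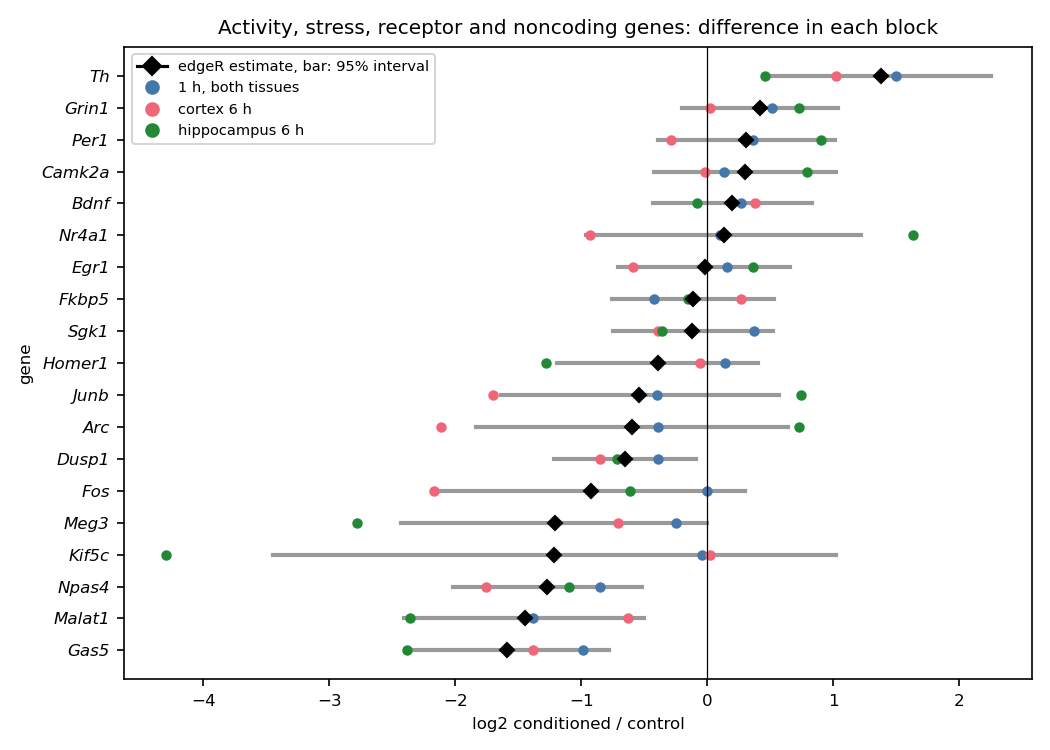
Log2 conditioned over control for the 19 genes of the panel; black diamonds with grey bars are the edgeR estimate and its 95% interval, and coloured points are the 1 h, cortex 6 h and hippocampus 6 h blocks. Npas4, Dusp1, Malat1, Gas5 and Th have all 3 points on 1 side of 0, whereas Arc, Junb and Nr4a1 have their cortex 6 h and hippocampus 6 h points on opposite sides.

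Read as a list, the 21 tested immediate early factors had a median log2 difference of 0.04, beside 0.01 over all genes tested, and it was -0.20 without the hippocampus 6 h block. By block the median was 0.14 at 1 h, -0.29 in cortex at 6 h and 0.51 in hippocampus at 6 h. Crem and Ier5 were above 0 in all 3 blocks, and Npas4 and Nr4a2 were below 0 in all 3, a share of 9.52% in each direction against 14.7% and 12.9% of all genes. Among 28 activity-regulated effectors, 3 (10.7%) lay higher and 5 (17.9%) lower in all blocks. Trib1, a pseudokinase scaffold, had the smallest p after Dusp1 (-0.55, SE 0.25). Among 20 glucocorticoid targets, 2 (10%) lay higher and 3 (15%) lower in all blocks, and the median was -0.10. Hif3a, a hypoxia-factor relative induced by glucocorticoids, had -1.0 (SE 0.41), and -0.59 without the cortex 6 h block, with levels of 3.68 to 11.2 CPM in controls and 2.80 to 3.97 CPM in conditioned libraries. Fkbp5, the cochaperone that dampens the glucocorticoid receptor, had -0.11 (SE 0.27), and Sgk1, a salt- and stress-induced kinase, had -0.12 (SE 0.27). Per1, a clock gene that both light and stress induce, had 0.31 (SE 0.29), 0.06 without the hippocampus 6 h block and -0.07 with the GC and length trend removed.

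Long noncoding RNAs lay lower in conditioned libraries, led by Gas5 and Malat1. Gas5 is a snoRNA host gene whose message carries a short reading frame and is degraded when it is translated. Its control levels were 11, 66.1, 32.9 and 91.2 CPM in cortex 1 h, hippocampus 1 h, cortex 6 h and hippocampus 6 h. Its conditioned levels were 18.7 and 21.5 CPM in the 1 h pair, 12.4 in cortex and 17.1 in hippocampus at 6 h. All conditioned values lay below 3 of the 4 controls and above the cortex control at 1 h. The log2 difference was -1.59 (SE 0.34, 95% interval -2.4 to -0.78), the smallest unadjusted p among the named genes (edgeR adjusted p = 0.923). The blocks gave -0.99, -1.38 and -2.38, and the value without the hippocampus 6 h block was -1.17.

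Malat1, a nuclear RNA of splicing speckles, spanned a wider range. It stood at 711, 3380, 5600 and 21000 CPM in the controls and at 819 and 808 (1 h pair), 3630 and 4100 CPM (cortex and hippocampus at 6 h) in the conditioned libraries. Its levels were higher at 6 h than at 1 h in both groups, and the groups overlapped across times. They also overlapped at 1 h, where both conditioned values lay above the cortex control. The 1 h difference therefore rests on the hippocampus control, which held 11138 counts against 1931 in the cortex control. The log2 difference was -1.45 (SE 0.40, edgeR adjusted p = 0.923), with -1.38, -0.63 and -2.36 in the blocks and -1.01 without the hippocampus 6 h block. Malat1 is known as a nuclear RNA that is not translated, and the origin of its reads in these polyribosome libraries was not tested. Whether the share of such RNA differed between libraries was not tested.

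All 14 tested long noncoding RNAs had a fitted difference below 0, against 5885 of 11987 genes tested, and 6 (42.9%) lay below 0 in all 3 blocks, against 12.9% of all genes. These were Gas5, Malat1, Meg3, Snhg11, Miat and Rian. Meg3, an imprinted RNA of neurons, had -1.21 (SE 0.51), of which -2.78 came from hippocampus at 6 h, and -0.49 without that block. Snhg11, a neuronal snoRNA host gene, had -0.68 (SE 0.30). Miat, an RNA that binds splicing factors, had -0.55 (SE 0.26), with -0.64, -0.75 and -0.19 in the blocks. The median of the list was -0.54, and -0.32, -0.15 and -0.78 in the 3 blocks. It was -0.24 without the hippocampus 6 h block and -0.30 with the GC and length trend removed. The list was chosen with earlier results of these data known, so its direction is a description.

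Messages for glutamate receptors lay slightly higher in conditioned libraries. Of 29 ionotropic receptor genes, 9 (31.0%) lay above 0 in all 3 blocks and 0 lay below, beside 14.7% and 12.9% of all genes. The median was 0.24, with 0.24 at 1 h, 0.16 in cortex and 0.34 in hippocampus at 6 h. It was 0.18 without the hippocampus 6 h block and 0.09 with the GC and length trend removed. Among the 9 were Grin1 and Grin2a, subunits of the NMDA receptor, Grik3, a kainate receptor subunit, and Cacng2, Cacng3, Cacng8 and Cnih3, auxiliary subunits that carry AMPA receptors to the synapse. Cacng8 had the largest difference of these, 1.09 (SE 0.41, edgeR adjusted p = 0.923). Its level was 15.5, 18.2, 5.08 and 4.00 CPM in controls (cortex 1 h, hippocampus 1 h, cortex 6 h, hippocampus 6 h) and 24.3, 25.5, 8.87 and 22.9 CPM in conditioned libraries. The ranges of the groups overlapped. The blocks gave 0.57, 0.75 and 2.38, and the value without the hippocampus 6 h block was 0.64. The value of 2.38 rests on 5 control and 71 conditioned counts. Grin1 had 0.42 (SE 0.26), which became 0.27 without that block and 0.03 with the GC and length trend removed.

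Of 7 metabotropic glutamate receptors, 4 (57.1%) lay higher in all blocks (Grm2, Grm3, Grm4 and Grm8) and 0 lower. The shares of all genes were 14.7% and 12.9%. The median of the 7 was 0.24. Grm2, a presynaptic receptor that limits glutamate release, had 0.87 (SE 0.33, edgeR adjusted p = 0.923), from 58.9, 37.3, 27.3 and 12 CPM in controls and 63.7, 73.1, 37.9 and 42.2 CPM in conditioned libraries. Its value was 0.53 without the hippocampus 6 h block. The 16 GABA receptor genes went the other way in 1 block only. Their median was 0.26 at 1 h, 0.21 in cortex and -0.70 in hippocampus at 6 h, which gave -0.13 over the blocks and 0.22 without the hippocampus 6 h block. Gabra5, the subunit of extrasynaptic receptors in hippocampal pyramidal cells, stood at 916 CPM in the hippocampus control 6 h library and at 285 CPM in its conditioned counterpart.

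Receptors for acetylcholine, monoamines and histamine had the same median of 0.24. Of 29 such receptors, 11 (37.9%) lay higher in all 3 blocks and 1 (3.45%) lower, beside 14.7% and 12.9% of all genes. Among the 11 were 6 acetylcholine receptor genes, Chrm1, Chrm3, Chrm4, Chrna4, Chrna7 and Chrnb2. Chrm4, a muscarinic receptor that inhibits adenylyl cyclase, had 0.96 (SE 0.32). It stood at 14.0, 6.37, 7.49 and 2.4 CPM in controls and at 19.3, 17.5, 11.8 and 8.06 CPM in conditioned libraries. In hippocampus at 6 h these rest on 3 control and 25 conditioned counts. Chrna7, the alpha 7 nicotinic subunit, had 0.74 (SE 0.32). Hrh1, an excitatory histamine receptor, had 0.95 (SE 0.36), at 1.21 to 9.94 CPM in controls and 2.26 to 8.93 CPM in conditioned libraries. For Hrh1 in hippocampus at 6 h there were 2 control and 7 conditioned counts. Drd2, the dopamine receptor of striatal neurons, lay at -2.10 in cortex at 6 h. None of these receptors passed after adjustment (adjusted p = 0.923 in edgeR).

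Other synaptic and excitability genes showed smaller medians. The counts below stand beside 14.7% of all genes higher and 12.9% lower in all 3 blocks. Of 32 synaptic vesicle genes, 10 (31.2%) lay higher and 2 (6.25%) lower in all blocks (median 0.10, and -0.02 with the GC and length trend removed). Syt5, a calcium sensor of vesicles, had 0.62 (SE 0.30), and 0.28 without the hippocampus 6 h block. Cplx2, a clamp of vesicle fusion, had -0.55 (SE 0.26). Of 28 postsynaptic scaffolds and adhesion genes, 7 (25%) lay higher and 1 (3.57%) lower (median 0.13, and -0.04 with that trend removed). Among them, Nlgn3, a neuroligin of both excitatory and inhibitory synapses, had 0.61 (SE 0.31, and 0.26 without the hippocampus 6 h block). Of 37 potassium channels, 11 (29.7%) lay higher and 3 (8.11%) lower (median 0.05). Of 26 sodium, calcium and HCN channels, 6 (23.1%) lay higher and 1 (3.85%) lower (median 0.13). Hcn4, a pacemaker channel, had 1.04 (SE 0.45), at 0 to 5.52 CPM in controls and 1.61 to 7.77 CPM in conditioned libraries. For Hcn4 in hippocampus at 6 h there were 0 control and 5 conditioned counts. Of 31 kinases and phosphatases of plasticity, 3 (9.68%) lay in each direction (median 0.04), a share below that of all genes. Camk2a, the kinase of long-term potentiation, had 0.30 (SE 0.30), at 4610, 4710, 5180 and 3920 CPM in controls and 4940, 5040, 5100 and 6770 CPM in conditioned libraries, and its value was 0.05 without the hippocampus 6 h block. Of 16 neuropeptides, 4 (25%) lay higher and 0 lower (median 0.15). The 4 included Cck, a peptide of cortical interneurons and pyramidal cells, at 0.46 (SE 0.25). Sst, the peptide of a dendrite-targeting interneuron class, was also among them at 0.37 (SE 0.24). With the GC and length trend removed, Cck had 0.01, Sst -0.01 and the neuropeptide median -0.02.

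The messages of the translation machinery had medians of opposite sign in different blocks. The 81 cytosolic ribosomal protein genes had medians of -0.30 at 1 h, 0.13 in cortex and 0.60 in hippocampus at 6 h, and 0.09 over the blocks (-0.11 without the hippocampus 6 h block). Of them, 3 (3.7%) lay higher and 8 (9.88%) lower in all blocks, both below the 14.7% and 12.9% of all genes. Rpl34 of the large subunit had -0.67 (SE 0.31), and Rps27a, a fusion of ubiquitin and a small subunit protein, had -0.64 (SE 0.32). The 80 oxidative phosphorylation genes followed the same order (-0.26, 0.10 and 0.73), and the 78 mitochondrial ribosomal protein genes did too (-0.20, 0.09 and 0.50). The 57 replication-dependent histone genes had -0.12, -0.47 and 2.84, which gave 0.24 over the blocks and -0.24 without the hippocampus 6 h block. Their messages lack the usual poly A tail and are near copies of one another, so reads may be shared among them. Of 49 translation factors, 3 (6.12%) lay higher and 11 (22.4%) lower in all blocks, with a median of -0.04. Eif3e, a subunit of the initiation factor that recruits the small ribosomal subunit, had -0.83 (SE 0.31, edgeR adjusted p = 0.923). Its levels were 14.0, 24.3, 44.4 and 69.6 CPM in controls and 14.9, 16.9, 26.1 and 25.1 CPM in conditioned libraries, and its value was -0.53 without the hippocampus 6 h block.

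Among 46 chromatin modifiers, 4 (8.7%) lay higher and 12 (26.1%) lower in all blocks, beside 14.7% and 12.9% of all genes. The median was -0.09, and -0.04 without the hippocampus 6 h block. Tet2, which oxidises methylated cytosine, had -0.77 (SE 0.29, edgeR adjusted p = 0.923). It stood at 15.5, 31.9, 73.8 and 137 CPM in controls and at 15.9, 20.8, 51.9 and 50.6 CPM in conditioned libraries, and its value was -0.45 without the hippocampus 6 h block. Tet1, its relative, had -0.68 (SE 0.33), with -1.50 in hippocampus at 6 h and -0.25 without that block. Hdac1 and Kmt2a, a histone deacetylase and a methyltransferase, were also among the 12. The remaining lists (translation control, tRNA synthetases, chaperones, clock genes and the proteasome) had medians between -0.07 and 0.12, and all of these medians but that of the chaperones had the opposite sign without the hippocampus 6 h block.

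**Figure D3:**
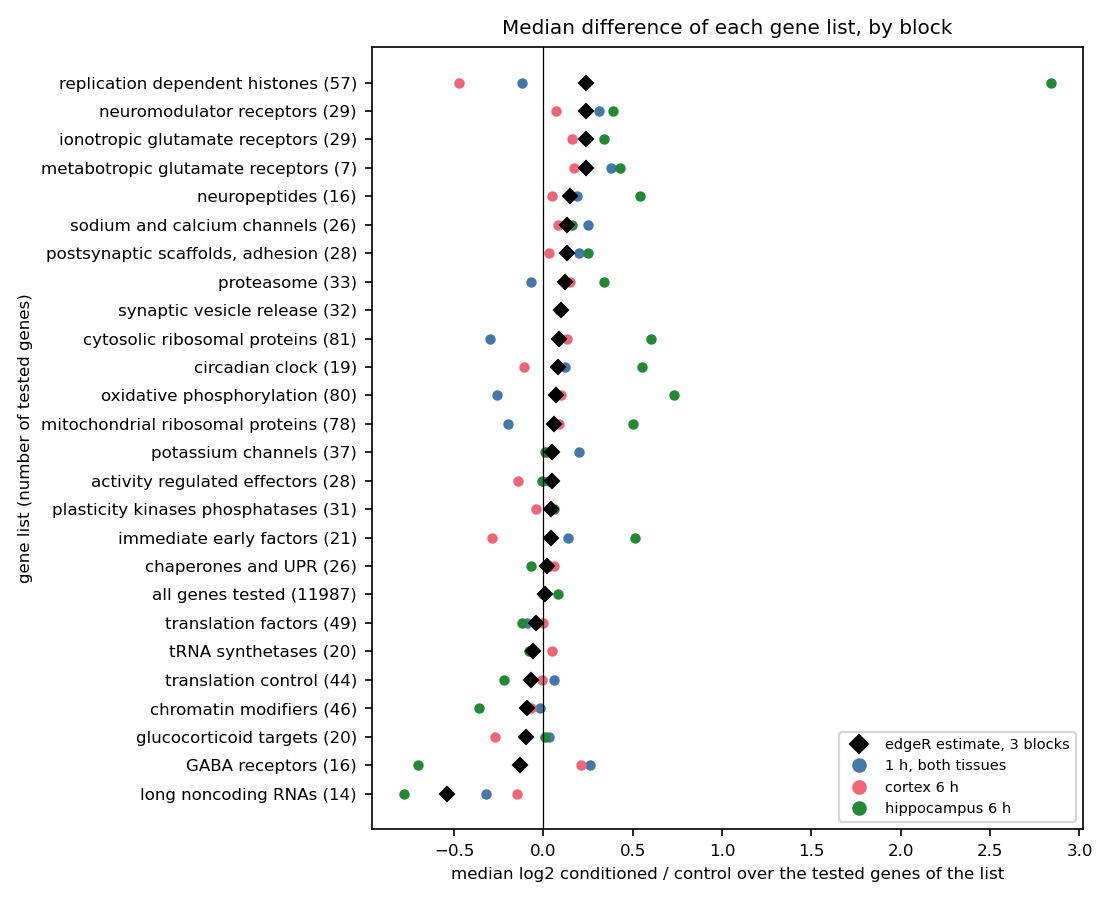
Median log2 conditioned over control for each list of genes by role, with the number of tested genes in brackets; black diamonds are medians of the edgeR estimate and coloured points are the medians in each block. Diamonds lie between -0.54 (long noncoding RNAs) and 0.24, and the hippocampus 6 h points are spread from -0.78 (long noncoding RNAs) to 2.84 (histones).

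The 12 genes of smallest unadjusted p that lay higher in all 3 blocks were Th, Ptpru, Slc20a2, Ccdc157, Chrm4, Lrrc3, Tmem176a, Gpaa1, Gemin8, Ptgds, Syngr3 and Slc22a17. Slc20a2, a sodium-dependent phosphate transporter, separated the groups most evenly. It stood at 33.5, 29.4, 23.8 and 23.2 CPM in controls and at 44.8, 41.0, 44.1 and 47.7 CPM in conditioned libraries. Every conditioned library lay above every control, at 44.9 ± 2.5 CPM (SD, n = 3) against 27.5 ± 4.89 (SD, n = 4). Its log2 difference was 0.79 (SE 0.26, edgeR adjusted p = 0.923), with 0.49, 0.88 and 1.02 in the blocks and 0.67 without the hippocampus 6 h block.

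Ptgds, the prostaglandin D synthase of the meninges and of oligodendrocytes, stood at 577, 325, 205 and 119 CPM in controls and at 595, 637, 337 and 195 CPM in conditioned libraries, a log2 difference of 0.65 (SE 0.23). The groups overlapped across times, and the blocks gave 0.52, 0.72 and 0.71. With the GC and length trend removed the value was 0.29 (SE 0.27). Slc22a17, a receptor for the iron carrier lipocalin 2, had 1.11 (SE 0.40), with 0.20 at 1 h, 1.0 in cortex and 2.19 in hippocampus at 6 h, and 0.57 without the hippocampus 6 h block. Syngr3, a synaptic vesicle protein, had 0.78 (SE 0.28), which became 0.50 without that block and 0.44 with the GC and length trend removed. Ptpru, a receptor tyrosine phosphatase, had 0.94 (SE 0.30, and 0.58 with that trend removed), and Gemin8, a component of the complex that assembles splicing particles, had 0.91 (SE 0.32).

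Th, tyrosine hydroxylase, the first enzyme of dopamine synthesis, had the largest fitted difference of the 12, 1.38 (SE 0.37, edgeR adjusted p = 0.923). It stood at 9.94, 1.82, 2.41 and 0.80 CPM in controls and 15.9, 16.2, 5.38 and 1.29 CPM in conditioned libraries. The hippocampus libraries at 6 h rested on 1 and 4 counts, and the value without them was 1.47. Th is also a marker of periglomerular neurons of the olfactory bulb. The summed level of the 4 tested olfactory bulb markers was 225, 156, 160 and 168 CPM in controls and 210, 213, 168 and 169 CPM in conditioned libraries. Their median log2 difference was 0.42, with 0.52 at 1 h, 0.55 in cortex and -0.04 in hippocampus at 6 h. Without the hippocampus 6 h block the list median was 1.11. Doc2g and Eomes were also tested in that fit, so the medians of 0.42 and 1.11 cover different genes. Of the 4 in the main fit, Th lay higher in all 3 blocks. Cdhr1, a photoreceptor and mitral cell cadherin, had 0.90 at 1 h, 1.41 in cortex and -0.16 in hippocampus at 6 h. The part of bulb tissue in the Th value was not tested.

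**Figure D4:**
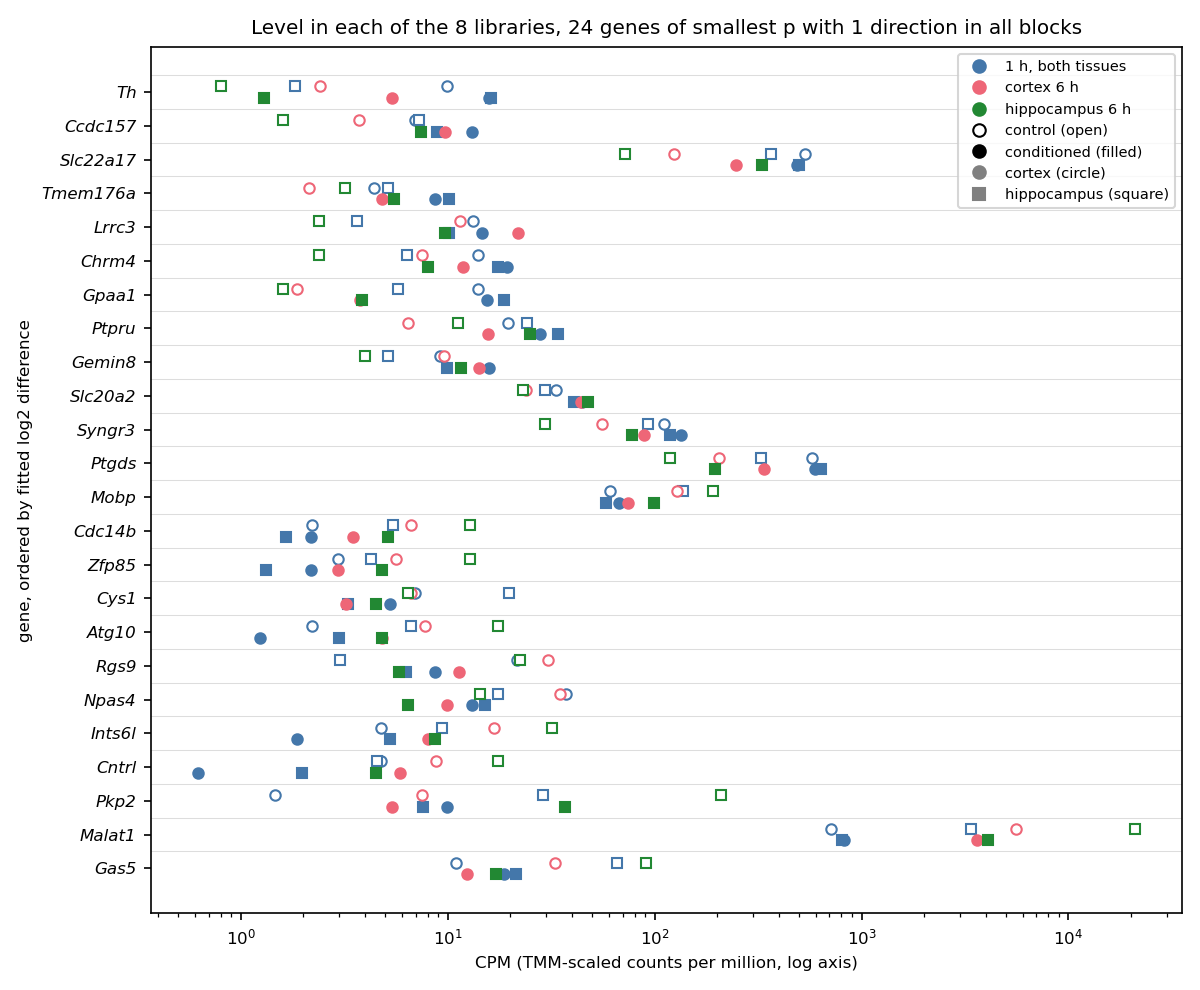
CPM on a log axis in each of the 8 libraries for the 12 genes of smallest p in each direction; open symbols are controls, filled symbols conditioned, circles cortex, squares hippocampus, and colours the 3 blocks. Filled symbols lie right of the open symbol of the same colour for most of the upper 12 genes, as for Slc20a2 (41.0 to 47.7 against 23.2 to 33.5 CPM), and mostly left of it for the lower 12.

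The 12 on the lower side were Gas5, Ints6l, Npas4, Malat1, Rgs9, Mobp, Cntrl, Cys1, Atg10, Cdc14b, Pkp2 and Zfp85. Mobp, a myelin protein of oligodendrocytes, stood at 60.7, 137, 128 and 191 CPM in controls and at 67.5, 58.2, 74.2 and 98.9 CPM in conditioned libraries. All conditioned values lay below 3 of the 4 controls, and the cortex control at 1 h lay among them. The log2 difference was -0.80 (SE 0.23, edgeR adjusted p = 0.923), and -0.73 without the hippocampus 6 h block. Of the 15 oligodendrocyte markers, Mobp and Mal, another myelin protein, lay lower in all blocks (Mal -0.46, SE 0.23) and 1 lay higher. These shares of 13.3% and 6.67% stand beside 12.9% and 14.7% of all genes. The median of the 15 was 0.18, and -0.09 without the hippocampus 6 h block. Ints6l, a relative of a subunit of the Integrator complex, had -1.31 (SE 0.32), from 4.79 to 32.0 CPM in controls and 1.87 to 8.70 CPM in conditioned libraries. Cys1, a ciliary protein, had -1.19 (SE 0.36), and its samples did not overlap, at 4.01 ± 0.689 CPM (SD, n = 3) against 9.95 ± 6.52 (SD, n = 4). Its highest control was 19.7 CPM. Cntrl, a protein of the mother centriole, Cdc14b, a cell cycle phosphatase, and Atg10, an enzyme of autophagosome formation, had -1.37, -1.08 and -1.20. Pkp2 had -1.38 (SE 0.44), and -0.87 in the fit of 7 libraries.

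Rgs9, a regulator of dopamine receptor signalling in the striatum, stood at 21.7, 3.03, 30.5 and 22.4 CPM in controls and at 8.71, 6.28, 11.3 and 5.80 CPM in conditioned libraries, a log2 difference of -1.26 (SE 0.35, edgeR adjusted p = 0.923) and -1.02 without the hippocampus 6 h block. It belongs to the markers of striatal projection neurons, whose mean log2 CPM was 4.78 and 5.09 in the cortex controls at 1 h and 6 h and 3.98 in the conditioned cortex at 6 h. Of the 12 striatal markers tested, 0 lay higher and 2 (16.7%) lower in all blocks, beside 14.7% and 12.9% of all genes. The striatal median was -0.30 at 1 h, -1.07 in cortex at 6 h and 0.67 in hippocampus at 6 h. Pde10a, the striatal phosphodiesterase, had -0.58, -1.21 and -0.56. The striatal markers thus moved with the cortex comparison at 6 h, beside the low Fos, Arc and Junb values there, and their part in those values was not tested. In bulk samples such as these, fewer cells of a type and less RNA per cell cannot be told apart.

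Markers of the other cell types had medians of either sign, and none of their genes passed. The counts below stand beside 14.7% of all genes higher and 12.9% lower in all 3 blocks. Of 24 hippocampal markers, 2 (8.33%) lay higher and 5 (20.8%) lower in all blocks (median -0.22, and 0.07 in the fit of 7 libraries). Of 22 cortical markers, 3 (13.6%) lay higher and 5 (22.7%) lower (median -0.03). Prox1, the factor of dentate granule cells, had -0.22 (SE 0.23). Of 8 thalamic markers, 0 lay in 1 direction in all blocks (median -0.02), and of 12 astrocyte markers 3 (25%) lay higher and 0 lower (median 0.11). Of 15 interneuron markers, 7 (46.7%) lay higher and 0 lower (median 0.19), including Reln, a secreted protein of layer 1 cells, at 0.47 (SE 0.23). The interneuron median was 0.10 without the hippocampus 6 h block and 0.05 with the GC and length trend removed. All 7 endothelial and mural markers had a fitted value above 0, 4 of them (57.1%) in all blocks. Their median was 0.37, and 0.49 with that trend removed. Their summed levels were 54 to 98 CPM in controls and 67 to 104 CPM in conditioned libraries. Of 10 microglial markers, 4 (40%) lay higher and 1 (10%) lower (median 0.29, and 0.14 with that trend removed). Among them, C1qc, a complement component, had 0.65 (SE 0.32) and Cx3cr1, the fractalkine receptor, had 0.50 (SE 0.29). The 5 blood cell genes had medians of -0.39, -0.91 and 2.10 in the blocks, and their summed level was 18 CPM in the hippocampus control 6 h library against 163 to 218 CPM in the other controls. Ttr, the transthyretin of the choroid plexus, stood at 6.40 CPM in that library and at 77.0 CPM in the conditioned hippocampus at 6 h, beside 56.1 CPM in the hippocampus control at 1 h. It is 1 of 4 tested choroid plexus and ependymal markers, whose median was 0.29.

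**Figure D5:**
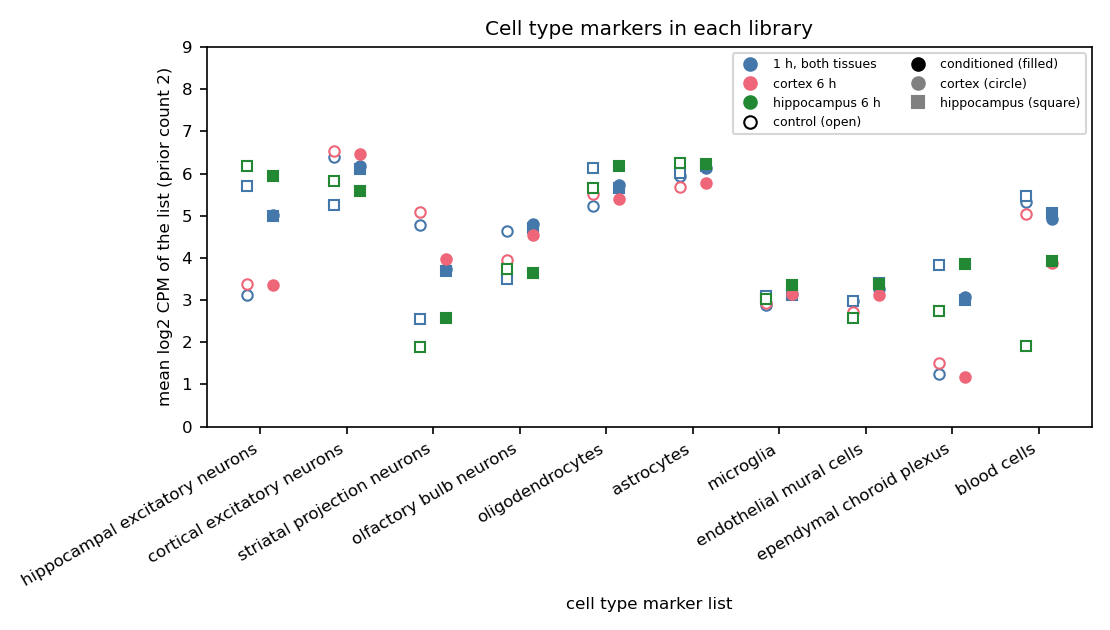
Mean log2 CPM of each marker list in every library; open symbols are controls, filled symbols conditioned, circles cortex, squares hippocampus, and colours the 3 blocks. The filled 1 h symbols coincide and lie between the open 1 h symbols for hippocampal and striatal markers, and the open green square is lowest for blood cells (1.92).

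Whether training acted differently at 6 h than at 1 h was tested as an interaction. Of 11987 genes, 0 (0%) passed in edgeR, and 5 had an unadjusted p under 0.05, with 1 residual degree of freedom. The residual was the gap between the cortex and hippocampus blocks at 6 h, which includes the hippocampus control 6 h library. Standard errors were wide, as for Fos (-1.78, SE 1.05) and Meg3 (-1.50, SE 1.01). The test could therefore miss large differences between the times, and does not show that training acted alike at both. The difference in hippocampus at 6 h was also set against the common difference of the other blocks, and 3063 genes (25.6%) passed, the smallest adjusted p being 5.22e-07. Kif5c led them at -4.30 (SE 0.16). Its training difference over all blocks was -1.22 (SE 0.94), and -0.01 without the hippocampus 6 h block. Meg3 (-2.30), Homer1 (-1.32), Malat1 (-1.35) and Gas5 (-1.25) were further negative in that block, and Nr4a1 (1.96), Slc22a17 (1.62) and Camk2a (0.73) were further positive. This contrast rests on 1 conditioned library and 1 control library, and that control also had the fewest counts and genes. Its 1 residual degree of freedom was the gap between the 1 h and cortex 6 h differences. The p-values of the contrast therefore measure no spread between hippocampus libraries at 6 h. With the GC and length trend removed, 1967 genes passed. Training in hippocampus at 6 h and the state of that control library cannot be told apart.

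Leaving out that control library was the only setting in which genes passed for training. Then 24 of 12363 genes tested passed in edgeR, 5 higher and 19 lower. Among them were Gas5 (-1.18, adjusted p = 0.000588), Malat1 (-1.02, adjusted p = 0.000229), Npas4 (-1.28, adjusted p = 0.00102), Mobp (-0.74, adjusted p = 0.0048), Ptgds (0.60, adjusted p = 0.0048) and Th (1.45, adjusted p = 0.015). They also held 4 striatal markers, all lower (Six3 -2.67, Adora2a -1.90, Pde10a -0.91 and Ppp1r1b -0.72), and 4 olfactory bulb markers, all higher (Doc2g 2.75, Eomes 2.57, Th 1.45 and Cdhr1 1.10). The striatal list held 15 genes and the olfactory bulb list 9. Of the 21 called genes that were also tested with every library, 10 had the same sign in the hippocampus 6 h block and 11 the opposite one. Six3, Doc2g and Eomes were not tested with every library. In that block Adora2a (1.56), Ppp1r1b (3.44) and Cdhr1 (-0.16) had the opposite sign, while Pde10a (-0.56) and Th (0.46) had the same. The calls did not hold when the conditioned hippocampus library at 6 h, or both libraries of the block, were left out instead, although the same 2 blocks then carry the contrast. The smallest adjusted p was then 0.097 and 0.102, and 0 genes passed, with 781 and 794 at an unadjusted p under 0.05. The median total degrees of freedom that edgeR assigned were 65.3 without the control, and 12.7 and 12.5 in the other fits.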

How the data were processed

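Polyribosome-associated RNA had been sequenced in 8 mouse libraries. The deposited file holds raw read counts (whole numbers) for 28157 RefSeq transcript rows. RNA depleted of ribosomal species was copied with both random and poly A priming, and the cDNA was amplified by SPIA and then by PCR, per the labels' protocols. CASAVA 1.7, TopHat 1.3.1, edgeR 2.612, limma 3.12.3 and mm9 were used, per the submitters' processing notes. The counting program and strand handling are not named in the labels, so overlapping genes, isoforms and near-identical family members may share reads. PCR without molecular identifiers means that counts are not independent molecules. Identifiers were matched to symbols through RefSeq (GRCm38.p6) and GENCODE tables (98.1% of 27304), and no mm9 coordinates were used.

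Each gene was represented by its transcript of highest total count. The conditioned 1 h pair, which agreed within sampling noise, was summed and set against the summed 1 h controls. The 6 resulting columns formed 3 blocks of tissue and time. Training was tested with the edgeR 4.0.16 quasi-likelihood test (R 4.3.3, robust fit, TMM, default filter, Benjamini-Hochberg adjustment at 0.05), and the script was tested on simulated data. Block differences used a prior count of 2 and had no test. DESeq2 1.42.0 and limma 3.58.1 served as alternatives. Depth ranged from 2370973 to 5296986 counts. The tissue and time block pairs the libraries by label, and the fit without it is given in the closing section.

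Named genes were the 12 of smallest p in each direction among genes of average log2 CPM of at least 2 with 1 direction in all blocks, a panel of 19 genes, and the 2 members of smallest p in each of 38 lists. The lists are shown by counts and medians, and each median covers the list members tested in that fit. Members, lists and alternatives were chosen with earlier results of these data known, and the fit of GC content and length for the hippocampus contrast was added later.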

Additional observations from a re-analysis of the deposited data

Results flagged for a closer look

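Control libraries that lay far from the other 3 were sought by Dixon's test over 39 genes and 38 lists, of which chance flags about 1 in 20. Kif5c, the kinesin motor, stood at 152000 CPM (1.52e+05) in the hippocampus control 6 h library. In the hippocampus control 1 h library, Cys1, the ciliary protein, was high at 19.7 CPM and Rgs9, the striatal regulator, was low at 3.03 CPM. The tRNA synthetases had a mean log2 CPM of 6.15 in the cortex control 1 h library, above the other controls. The blood cell genes had a mean log2 CPM of 1.92 in the hippocampus control 6 h library, below the others. With the conditioned 1 h pair counted once, the conditioned group held too few samples for that test.

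The log2 difference in hippocampus at 6 h differed from the common difference of the other blocks for 9 of 39 genes (edgeR, adjusted p under 0.05). These 39 were the panel and the 24 with smallest p. Of all 11987 genes tested, 25.6% passed the same contrast, so the count does not set these genes apart. The difference was further negative for Kif5c (-4.30), Meg3 (-2.30), Pkp2 (-1.75), Malat1 (-1.35), Homer1 (-1.32) and Gas5 (-1.25). It was further positive for Nr4a1 (1.96), Slc22a17 (1.62) and Camk2a (0.73). Each of these values rests on the hippocampus control 6 h library named above.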

How the results depend on the processing

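The count of 0 genes for training held under every alternative run except 1. These were other normalisations, filters and choices of row, DESeq2, limma-voom, a fit that is not robust, the 8 libraries in 4 blocks, 7 libraries with a tissue value for the pair, and removal of the GC and length trend. Leaving out single libraries or blocks gave 0 to 24 genes, the 24 without the hippocampus control 6 h library. With no replicate block of tissue and time the count was 0, with 10 genes at an unadjusted p under 0.05. The interaction of training with hippocampus at 6 h gave 1967 genes with the GC and length trend removed, against 3063; the cause was not tested.

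Of 104 named genes, 99 kept their sign in all of the 14 alternatives that kept every library in which they were tested. The exceptions were Egr1 (0.10 with 8 libraries, 0.08 with 7, 0.00 with upper-quartile factors, 0.07 with library sizes without Kif5c, 0.01 without a filter and 0.09 with at least 30 counts), Dsp (0.17 with 7 libraries), and, with the GC and length trend removed, Nr4a1 (-0.18), Per1 (-0.07) and Sst (-0.01). Leaving out libraries or blocks gave ranges that crossed 0 for Egr1 (-0.28 to 0.36), Nr4a1 (-0.29 to 0.76), Fkbp5 (-0.32 to 0.26), Dsp (-1.17 to 0.53), St18 (-1.03 to 0.13), Junb (-0.77 to 0.06), Arc (-1.06 to 0.15), Sgk1 (-0.38 to 0.05), Hbb-b2 and Hbb-bt (-0.98 to 0.60), Rgs16 (-0.46 to 0.02), Homer1 (-0.66 to 0.04), H4c14 (-0.02 to 1.64) and Ttr (-0.18 to 2.51). Library sizes without Kif5c moved the median of all genes to 0.09. Genes near the low end of the count range, such as Th in hippocampus at 6 h with 1 and 4 counts, limit the precision of single blocks.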
